A study of Mus musculus with 17 samples.

Results

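Whole kidneys of 24-month-old mice were compared with whole kidneys of 12-month-old mice, 3 kidneys of each age, which are 6 of the 17 samples of the series. The 6 kidneys were chosen by the tissue and age in their labels and by no measured value. All came from untreated wild-type (WT) mice of the strain the labels spell C57BL/6Rj, described in the study's methods as male C57BL/6JRj mice, and RNA was taken from a snap-frozen piece of the right kidney. The study sequenced these kidneys to follow MHC class II genes in the ageing kidney of healthy mice, and it left out kidneys with visible or histological lesions. The other 11 samples are 3 kidneys of 3-month-old mice of the same strain, genotype and treatment status, and 8 cultures of tubular cells that were not used here. Kidneys of 3 months entered the same statistical model, where they share the filter on low counts, the scaling and the estimate of the spread between mice, and their values stand beside those of the older kidneys as a description. Which share of cortex, medulla and renal pelvis each frozen piece held is not given in the sources used here.

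Most of the RNA of a mouse kidney comes from proximal tubule cells, which reabsorb glucose, amino acids and phosphate and which in males express many genes under the control of androgens. Tubular cells rarely divide in the healthy adult kidney. After DNA damage or other stress the transcription factor p53 can induce Cdkn1a, the gene of the cell cycle inhibitor p21, and cells that stay arrested in this way are called senescent. Transcripts in a piece of whole kidney are a sum over all its cells, so that fewer cells of a type and less RNA per cell cannot be told apart.

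The 12-month kidneys had 54097073 to 59718029 reads counted on genes, and the 24-month kidneys 62761670 to 66894790. Levels are given as CPM, the reads of a gene relative to the size of its library after scaling of the libraries with TMM. Replicate 2 of each age stood apart from the other kidneys of its age. Its counts differed from theirs with a chi-square per gene of 252 and 256 at 12 months and of 129 and 125 at 24 months, against 17.0 and 43.2 between the remaining kidneys. In both of these kidneys genes with long transcripts were lower than in the other kidneys of the same age (across 10399 genes, correlation with log2 transcript length of -0.23 at 12 months and -0.20 at 24 months, a description over genes that share libraries). The same correlation was 0.17 and 0.24 for 12-month replicates 1 and 3, and 0.25 and -0.016 for 24-month replicates 1 and 3. A deviation with length was thus not particular to replicate 2. Proximal tubule genes were abundant in every kidney: the 20 genes of the list summed to between 64681 and 74041 CPM at 12 months and between 56395 and 61711 CPM at 24 months. Kap, whose levels are given below, held a large part of this sum and of its fall. Of the 20 genes 10 were higher at 24 months, and their median log2 fold change was -0.03. Of 8 adrenal cortex genes 1 passed the filter on low counts, and their sum was at most 0.855 CPM.

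Of 17067 genes tested, 153 (0.896%) were up-regulated at 24 against 12 months and 74 (0.434%) down-regulated, at an adjusted p under 0.05 from edgeR's quasi-likelihood test and an absolute log2 fold change above 0.5. An unadjusted p under 0.05 was found for 2602 genes (15.2%). All 227 called genes had groups of 3 kidneys that did not overlap, as did 13.5% of the tested genes with the 24-month kidneys higher and 12.2% with the 24-month kidneys lower. Of the up-regulated genes 149 were protein coding, and of the down-regulated genes 60 were. Since the groups of each called gene did not overlap, omitting 1 kidney of 12 or 24 months could hardly change its sign, and none changed. Few of the called genes then passed the threshold. The up-regulated genes numbered 0, 3 and 2 without 12-month replicates 1, 2 and 3, and 4, 4 and 55 without 24-month replicates 1, 2 and 3. The down-regulated genes numbered 8 without 24-month replicate 3 and 1 without any of the other 5 kidneys. Where there were 0 up-regulated genes, 2218 had an unadjusted p under 0.05. The counts also changed when a 3-month kidney was omitted, with 64 up- and 16 down-regulated genes without 3-month replicate 1 and 264 and 114 without 3-month replicate 2. Without both kidneys numbered 2, edgeR gave 0 calls in either direction, with 1785 genes at an unadjusted p under 0.05. When the replicate number paired the kidneys of 12 and 24 months, in a fit of these 6 kidneys alone, 1303 of 16794 genes rose (7.76%) and 907 fell (5.4%) past the threshold, and 225 of the 226 called genes that were tested there were called again. The fit of these pairs is called the paired fit. This pairing was chosen after the data had been seen. The kidneys are from different mice, and what the number marks is not given in the sources used here. Calls in the paired fit reuse the same 6 kidneys and are a description, not further evidence. With the number taken into account in the model that held the 3-month kidneys too, edgeR gave 0 calls in either direction. The 3-month numbers do not pair with the older ones. Exons of Cdkn1a, Krt5, Plk1, Kif20a, Prc1, Cdc20, Fosl1, Cyp51, Tc2n, Mogat2, Hebp1 and Dscaml1 overlap a gene on the opposite strand in the annotation, and exons of Srd5a2, Top2a, Foxm1 and Hspa8 one on the same strand, so that their counts could hold reads of a neighbour.

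**Figure D1:**
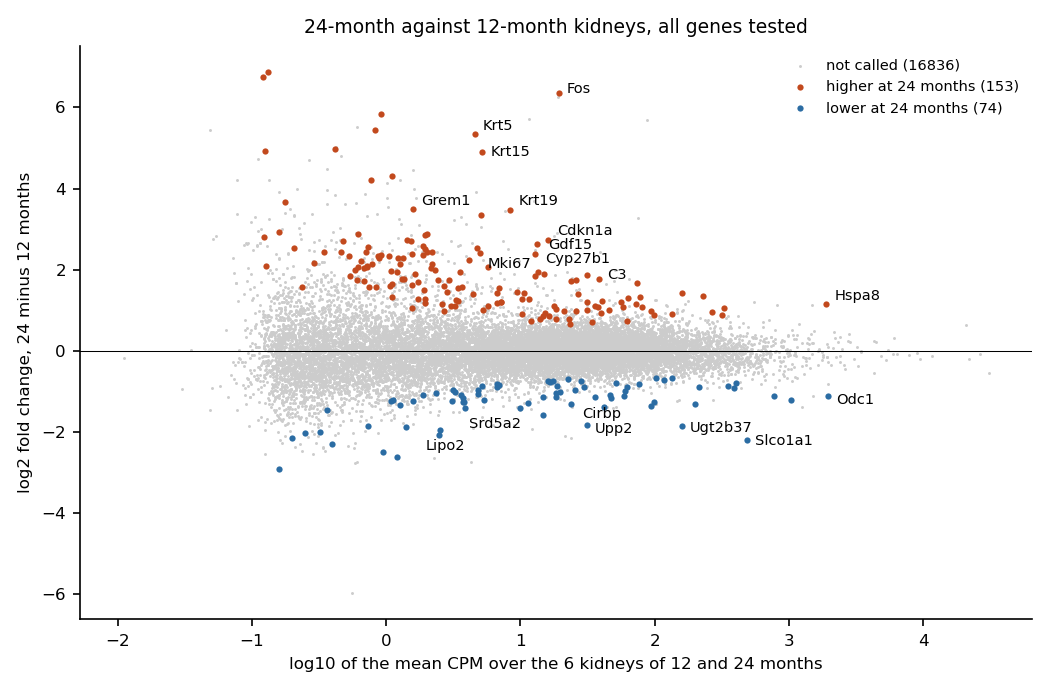
Log2 fold change between 24 and 12 months (vertical axis) against the log10 of the mean CPM over the 6 kidneys (horizontal axis), 1 point per gene tested. Red points are the 153 genes called higher at 24 months, blue points the 74 called lower, grey points the rest, and the zero line marks equal levels. Called genes lie at low abundance (Fosl1 and Rptn, below 1 CPM) as well as at high abundance (Hspa8 and Odc1).

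Cdkn1a (ENSMUSG00000023067.14, chromosome 17 from 29090976 to 29100727 of GRCm38), which encodes p21, was at 4.20, 3.27 and 5.17 CPM in the 12-month kidneys and at 28.9, 33.0 and 22.1 CPM in the 24-month kidneys. Every 24-month kidney was far above every 12-month kidney, and the 3-month kidneys, at 12.9, 11.5 and 12.1 CPM, lay in between. Its log2 fold change was 2.73 (SE, its standard error, 0.21, adjusted p = 0.00391 from edgeR), and Cdkn1a kept its call without any 1 kidney in 5 of 6 cases. Of 8 tested inhibitors of the cell cycle Cdkn1a was the only one called (0.896% of all genes were up-regulated), 3 were higher at 24 months, and the median log2 fold change was -0.04. Cdkn2b, which encodes p15, was at 0.954, 1.37 and 0.695 CPM at 12 months and at 3.65, 2.87 and 1.64 CPM at 24 months, groups that did not overlap, and did not pass the test (log2 fold change 1.43, adjusted p = 0.296), but did in the paired fit (adjusted p = 0.00753). Cdkn2a, the gene of p16, had too few reads to be tested.

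Several further targets of p53 were higher at 24 months. Gdf15 (chromosome 8 from 70629393 to 70632456), which encodes a secreted stress hormone, was at 3.85, 3.67 and 3.55 CPM at 12 months and at 23.3, 28.4 and 17.1 CPM at 24 months. The 12-month kidneys were nearly equal and all below the 3-month kidneys, at 9.48, 6.00 and 12.7 CPM. Gdf15 rose by a log2 fold change of 2.63 (SE 0.29, adjusted p = 0.0163). Eda2r, the receptor of ectodysplasin A2, was at 0.503, 0.674 and 0.579 CPM at 12 months and at 2.96, 4.67 and 2.38 CPM at 24 months (log2 fold change 2.51, adjusted p = 0.0236). Ccng1, which encodes cyclin G1, was at 211, 237 and 220 CPM and at 390, 455 and 399 CPM (log2 fold change 0.90, adjusted p = 0.0240). Groups overlapped for neither gene. Aen, an exonuclease of apoptosis, the death receptor gene Tnfrsf10b, Pmaip1, which encodes Noxa, and the mitotic genes Gtse1 and Psrc1 rose as well, with log2 fold changes from 1.04 to 2.34. In all 9 of 28 genes of a list of p53 targets were called, all higher (0.896% of all genes), and 12 in the paired fit (7.76% of all genes). Of the 28 genes 21 were higher, and the median was 0.63 (0.31 over the 26 members whose mean reached 1 CPM) against 0.00 over all genes tested. This list was added after the values had been seen, so its count is a description. Some classical targets were not called. Mdm2, the ubiquitin ligase that limits p53, was at 26.5, 46.0 and 28.4 CPM at 12 months and at 35.4, 57.3 and 30.2 CPM at 24 months (log2 fold change 0.29, adjusted p = 0.700, and 0.111 in the paired fit). Each 24-month kidney was above the 12-month kidney of its number, while the groups overlapped. Fas, a death receptor gene, had the lowest log2 fold change of the list, -0.49 (adjusted p = 0.566). Bax had one of 0.37 (adjusted p = 0.414, and 0.0426 in the paired fit, below the fold threshold).

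**Figure D2:**
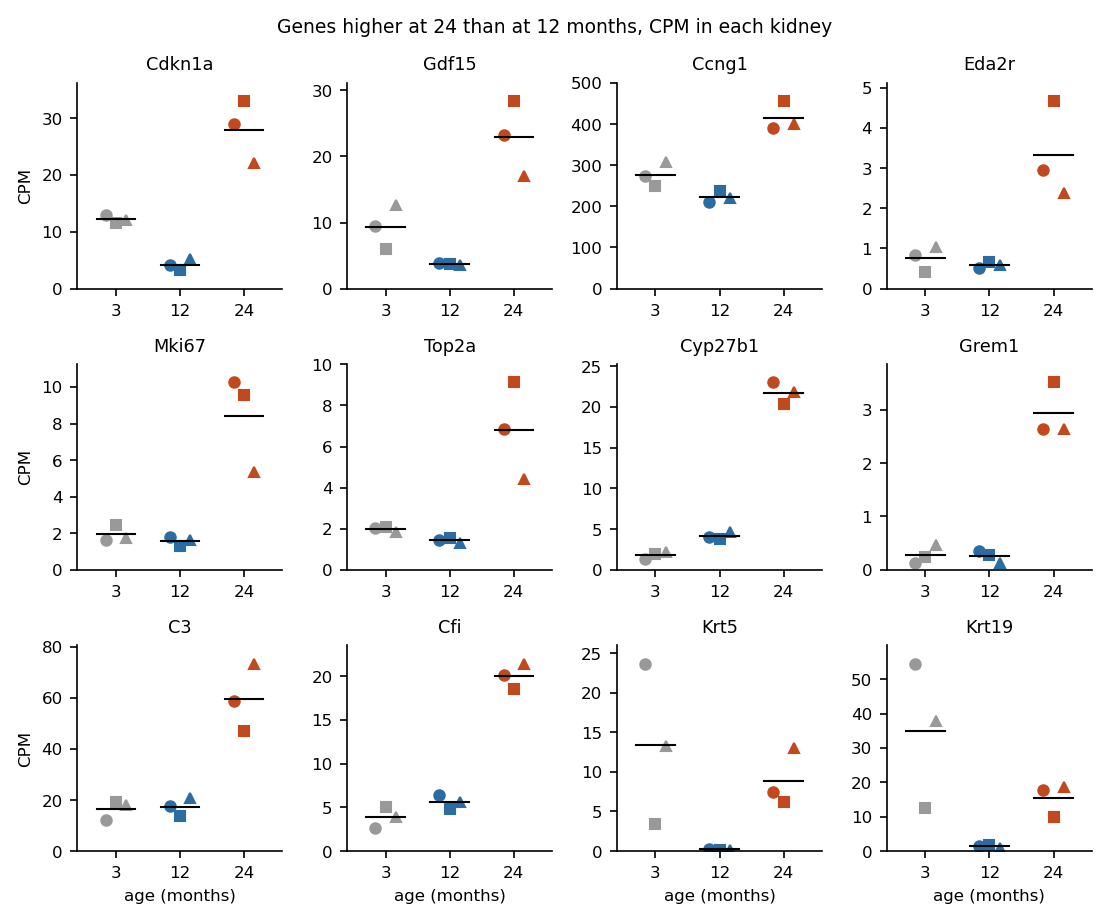
CPM (vertical axes, linear from 0) of 12 up-regulated genes in each kidney by age in months (horizontal axes). Circles are replicate 1, squares replicate 2 and triangles replicate 3, grey at 3, blue at 12 and red at 24 months, and the line is the mean of 3 kidneys. For every gene shown the 3 kidneys of 24 months lie above the 3 kidneys of 12 months, and for Krt5 and Krt19 the 12-month kidneys are near 0 while those of 3 months are not.

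Genes of dividing cells were higher at 24 months beside Cdkn1a. The proliferation list holds 28 genes of DNA replication and mitosis. Like the other lists it was chosen with earlier results of these data known, so its counts are a description. All 28 were tested, 12 were up-regulated and 0 were down-regulated, against 0.896% up-regulated among all genes. In the paired fit 22 were up-regulated, against 7.76% of all genes. The median log2 fold change was 1.74, 26 were higher at 24 months, and 25 had an unadjusted p under 0.05. The count of called members fell to between 0 and 8 when 1 kidney of 12 or 24 months was left out, while the median stayed between 1.33 and 1.99. Without both kidneys numbered 2 the median was 1.42, with 22 members at an unadjusted p under 0.05.

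Mki67 (chromosome 7 from 135689784 to 135716361), the gene of the Ki-67 protein of cycling cells, was at 1.82, 1.28 and 1.66 CPM at 12 months and at 10.2, 9.57 and 5.36 CPM at 24 months (log2 fold change 2.40, SE 0.29, adjusted p = 0.0181). Top2a (chromosome 11 from 98992943 to 99024189), a DNA topoisomerase, was at 1.44, 1.56 and 1.31 CPM and at 6.84, 9.12 and 4.44 CPM (log2 fold change 2.24, SE 0.26, adjusted p = 0.0181). Cenpf (chromosome 1 from 189640606 to 189688086), a kinetochore protein, was at 0.364, 0.230 and 0.617 CPM and at 2.14, 3.84 and 1.98 CPM (log2 fold change 2.72, SE 0.40, adjusted p = 0.0196). In all 3 genes the 24-month kidneys were above all 12-month kidneys, and 24-month replicate 3 was the lowest of its age. The 3-month kidneys had levels near those of 12 months, from 1.63 to 2.44 CPM for Mki67.

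The cyclin genes Ccnb1 and Ccnb2, the mitotic kinase gene Plk1, the spindle genes Tpx2, Kif20a and Prc1, the hyaluronan receptor gene Hmmr, Cdc20, an activator of the anaphase promoting complex, and the transcription factor gene Foxm1 rose with log2 fold changes from 1.74 (Cdc20) to 2.86 (Hmmr). Mcm5, a subunit of the replicative helicase, rose by 1.18, from 4.13 ± 0.23 CPM to 9.34 ± 1.01 CPM (SD, n = 3 each), and Uhrf1, which maintains DNA methylation, by 1.51. Apart from Mcm5, these genes had means of at most 1.35 CPM at 12 months. At the other end Tyms, thymidylate synthase, was at 18.6 ± 1.20 CPM at 12 months and 14.1 ± 2.74 CPM at 24 months (SD, n = 3 each, log2 fold change -0.40, adjusted p = 0.327).

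Since 12 proliferation genes moved together, their promoters were searched for the CCAAT box, the letters CCAAT. They were also searched for the cell cycle homology region in the form TTTGAA. Both motifs were searched on either strand, and each was counted separately. The window was 250 bases before to 30 bases after the start of transcription, from RefSeq on GRCm38.p6. CCAAT was found for all 9 called proliferation genes that had an entry, for 20 of 23 tested members, and for 41.5% of 12158 tested genes and 39.7% of all 27025 genes with an entry. TTTGAA was found for 5 of the 9 called, 8 of the 23 tested members, 14.3% of the tested genes and 19.5% of all genes. These are matches of letters and show no binding. Below are the windows of the called proliferation genes with the smallest adjusted p that hold both motifs, each on the minus strand and read 5′ to 3′, with the motifs of either strand in capitals: Mki67 at chr7:135716350-135716629, Top2a at chr11:99024160-99024439 and Cenpf at chr1:189688057-189688336.
Mki67: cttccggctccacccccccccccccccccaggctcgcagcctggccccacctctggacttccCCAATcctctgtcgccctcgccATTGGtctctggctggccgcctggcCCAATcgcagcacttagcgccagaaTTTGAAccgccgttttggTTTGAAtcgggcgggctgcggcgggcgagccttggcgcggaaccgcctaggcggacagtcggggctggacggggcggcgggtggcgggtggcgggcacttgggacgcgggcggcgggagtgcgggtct
Top2a: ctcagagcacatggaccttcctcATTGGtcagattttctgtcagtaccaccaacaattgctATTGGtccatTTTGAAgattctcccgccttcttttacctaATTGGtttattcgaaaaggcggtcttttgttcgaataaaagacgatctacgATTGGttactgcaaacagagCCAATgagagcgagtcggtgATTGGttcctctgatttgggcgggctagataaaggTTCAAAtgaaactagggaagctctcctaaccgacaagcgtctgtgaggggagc
Cenpf: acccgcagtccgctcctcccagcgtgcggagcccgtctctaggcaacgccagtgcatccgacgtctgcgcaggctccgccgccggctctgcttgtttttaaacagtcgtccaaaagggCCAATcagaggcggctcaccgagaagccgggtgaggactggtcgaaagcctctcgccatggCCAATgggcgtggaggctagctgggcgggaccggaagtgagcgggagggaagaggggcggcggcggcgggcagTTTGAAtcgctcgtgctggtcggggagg
Mki67 holds 3 CCAAT and 2 TTTGAA matches, Top2a 6 and 2, and Cenpf 2 and 1.

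Cyp27b1 (ENSMUSG00000006724.12, chromosome 10 from 127048250 to 127053006), the enzyme of the proximal tubule that makes active vitamin D, was at 4.02, 3.77 and 4.69 CPM at 12 months and at 22.997, 20.4 and 21.8 CPM at 24 months. The kidneys of each age were close together and the ages far apart, with the 3-month kidneys lowest, at 1.31, 1.946 and 2.25 CPM. The log2 fold change was 2.38 (SE 0.20, adjusted p = 0.00459), and in 5 of 6 cases the call was kept when 1 kidney was omitted. Slc34a3, a sodium phosphate cotransporter of the proximal tubule, was at 27.0, 20.1 and 25.2 CPM at 12 months and at 56.7, 52.1 and 60.1 CPM at 24 months (log2 fold change 1.23, adjusted p = 0.0443). Of 10 tested genes of the klotho and mineral list these 2 were called, against 0.896% of all genes up-regulated, 8 were higher and the median was 0.45 (0.27 without 12-month replicate 2). The paired fit had 2 of 10 up-regulated, against 7.76% of all genes. Kl, the gene of the anti-ageing hormone and coreceptor klotho, was at 643, 402 and 769 CPM and at 813, 642 and 801 CPM (log2 fold change 0.32, adjusted p = 0.634), groups that overlapped. Cyp24a1, which inactivates vitamin D, was at 37.3, 18.7 and 36.7 CPM and at 28.0, 75.1 and 108 CPM (log2 fold change 1.19, adjusted p = 0.323).

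Grem1, a secreted antagonist of BMP signalling, was at 0.347, 0.280 and 0.135 CPM at 12 months and at 2.64, 3.51 and 2.64 CPM at 24 months (log2 fold change 3.51, SE 0.45, adjusted p = 0.0181). The groups did not overlap, and at 3 months Grem1 was as low as at 12 months, from 0.131 to 0.472 CPM. Id3, a target of BMP signalling that encodes an inhibitor of DNA binding, fell from 53.05, 76.5 and 52.8 CPM to 17.0, 31.8 and 20.97 CPM (log2 fold change -1.39, adjusted p = 0.0456).

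Of 18 complement genes 2 were up-regulated, against 0.896% of all genes, 14 were higher at 24 months and the median log2 fold change was 0.54. In the paired fit 5 were up-regulated and 1 was down-regulated. C3, the central component of the cascade, was at 17.8, 13.8 and 20.6 CPM at 12 months and at 58.8, 46.9 and 73.4 CPM at 24 months (log2 fold change 1.78, SE 0.24, adjusted p = 0.0187). Cfi, complement factor I, which inactivates C3b, was at 6.37, 4.82 and 5.60 CPM and at 20.1, 18.5 and 21.4 CPM (log2 fold change 1.84, SE 0.23, adjusted p = 0.0181). For both genes the 24-month kidneys were well above all 12-month kidneys, and the 3-month kidneys were no higher than those of 12 months. Cxcl13, a chemokine that attracts B cells, was at 0.139, 0.181 and 0.116 CPM and at 1.02, 1.53 and 0.722 CPM (log2 fold change 2.89, adjusted p = 0.0499) and was the only one of 22 tested chemokines that was called. Of 28 matrix genes Col8a1, a collagen of vessel walls, was the only one called (log2 fold change 1.23, adjusted p = 0.0451), with 26 of 28 higher and a median of 0.33 (0.21 without 24-month replicate 1). In the paired fit 6 of 21 tested chemokines and 8 of 28 matrix genes were up-regulated, while 2 chemokines fell, against 7.76% up and 5.4% down among all genes.

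Immune cell lists and antigen presentation gave no call by edgeR in the model that held the kidneys of all ages. The 11 genes of MHC class II had a median log2 fold change of 0.18, with 9 higher at 24 months and 0 called, 0 also in the paired fit, and 1 with an unadjusted p under 0.05. Cd74, the invariant chain of MHC class II, was at 290, 189 and 317 CPM at 12 months and at 440, 289 and 326 CPM at 24 months (log2 fold change 0.41, adjusted p = 0.480, and 0.0632 in the paired fit). Each 24-month kidney had more Cd74 than the 12-month kidney of its number. H2-Ab1 was at 141, 154 and 158 CPM and at 195, 150 and 141 CPM, and H2-Eb1 at 117, 124 and 124 CPM and at 166, 129 and 121 CPM, with log2 fold changes of 0.10 and 0.19 (adjusted p = 0.770 and 0.590). In these 3 genes the groups overlapped, and 24-month replicate 1 was the highest of its age. The summed level of the list was from 647 to 759 CPM at 12 months and from 740 to 1010 CPM at 24 months, against 338 to 413 CPM at 3 months. The median of the list was 0.04 without 24-month replicate 1. The 16 genes of MHC class I had a median of -0.05.

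Of 12 genes that all leukocytes share 0 were called, 9 were higher and the median was 0.17. Without 24-month replicate 1 the median was 0.0021 with 6 of 12 higher, and without 12-month replicate 2 it was 0.31. Their sum was 148, 150 and 149 CPM at 12 months and 208, 151 and 152 CPM at 24 months. Ptprc, the gene of CD45, had a log2 fold change of -0.09, and Adgre1, the macrophage gene of F4/80, one of 0.59 (adjusted p = 0.905 and 0.341). The macrophage list had a median of 0.29 with 15 of 17 higher, the T and NK cell list one of 0.10 with 12 of 21 higher, and the B cell list one of 0.98 with 11 of 13 higher. Omitting 1 kidney moved these medians to between 0.20 and 0.49, -0.11 and 0.38, and 0.77 and 1.02, with the lowest of the T and NK cell list without 24-month replicate 1 and the highest without 12-month replicate 2. None of their members was called, and with an unadjusted p under 0.05 there were 3, 2 and 5. In the paired fit 4 of 17 macrophage genes, 3 of 13 B cell genes and 1 of 12 leukocyte genes were up-regulated, against 7.76% of all genes. Immunoglobulin transcripts varied widely between mice and took 0.00763%, 0.0410% and 0.0502% of the reads at 12 months and 0.0197%, 0.140% and 0.0426% at 24 months. Ighg2c, a constant region of IgG, was at 0.191, 0.526 and 0.579 CPM and at 1.53, 37.4 and 29.1 CPM and missed the threshold (log2 fold change 5.71, adjusted p = 0.0663), but passed it in the paired fit (adjusted p = 0.0125). Of 123 tested segments 0 were called, 25 had an unadjusted p under 0.05, and of 126 tested in the paired fit 24 were up- and 2 down-regulated. Among the 5 most abundant, Ighm, the constant region of IgM, was at 16.8, 15.7 and 9.49 CPM and at 41.2, 290.2 and 76.9 CPM (adjusted p = 0.0505, and 0.162 in the paired fit), Igkc and Igha overlapped between the ages, and Ighg2b had a log2 fold change of 3.68 (adjusted p = 0.102, and 0.000585 in the paired fit). Immunoglobulin segments resemble each other closely, and reads could be assigned to the wrong one. Of 28 interferon response genes 26 were higher, with a median of 0.35 and 0 called (7 at an unadjusted p under 0.05), and 8 were up-regulated in the paired fit. Of these 28 genes 20 were higher when 24-month replicate 2 was omitted, with a median of 0.13, and the median was 0.57 when 24-month replicate 1 was.

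**Figure D3:**
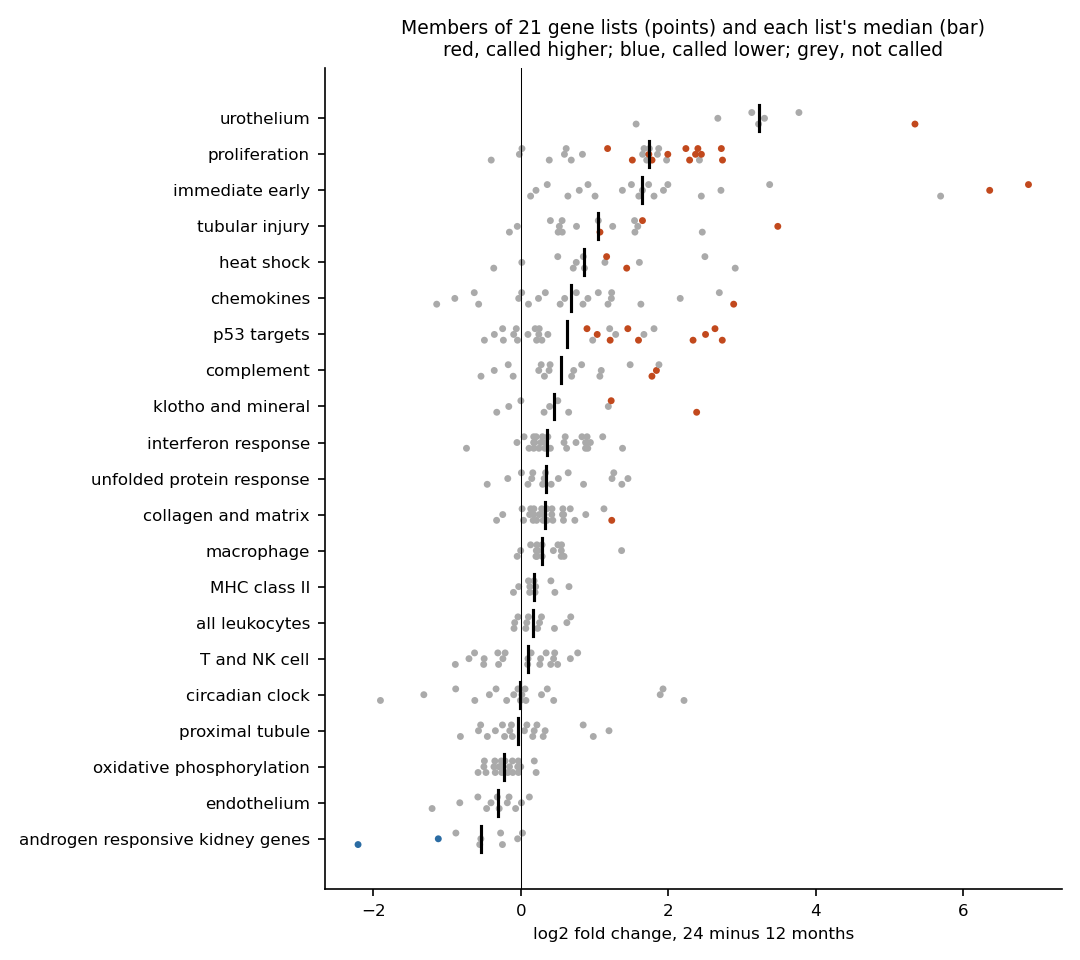
Log2 fold change between 24 and 12 months (horizontal axis) of each tested member of 21 gene lists (rows). Points are genes, red if called higher, blue if called lower and grey if not called, and the black bar is the median of the list. Of the lists plotted, urothelium, proliferation and immediate early have the highest medians (3.22, 1.74 and 1.65), the MHC class II and leukocyte lists have medians of 0.18 and 0.17, and the androgen list has the lowest (-0.54).

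Keratins of stratified and urothelial epithelium were near 0 at 12 months. Krt5 (chromosome 15 from 101707070 to 101712898), a keratin of basal urothelial cells, was at 0.312, 0.181 and 0.154 CPM at 12 months and at 7.50, 6.22 and 13.0 CPM at 24 months (log2 fold change 5.35, SE 0.75, adjusted p = 0.0196). Krt15 was at 0.312, 0.559 and 0.116 CPM and at 7.71, 7.34 and 15.2 CPM (log2 fold change 4.90, SE 0.64, adjusted p = 0.0181). Krt19, a keratin of collecting duct, urothelium and injured tubules, was at 1.56, 1.74 and 0.810 CPM and at 17.8, 9.79 and 18.7 CPM (log2 fold change 3.49, SE 0.55, adjusted p = 0.0262). The 3-month kidneys were not low: they had 23.7, 3.42 and 13.2 CPM of Krt5 and 54.5, 12.6 and 37.8 CPM of Krt19. Slc39a4, a zinc transporter, and Sprr1a, a protein of the cornified envelope, had the same order of ages, with log2 fold changes of 4.30 and 3.36.

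The uroplakin genes Upk1a, Upk1b, Upk2 and Upk3a, which define the urothelium that lines the renal pelvis, were also higher but missed the threshold. They had log2 fold changes from 2.67 to 3.77 and adjusted p from 0.0561 to 0.126. Of 8 urothelial genes 7 were tested, and all 7 were higher at 24 months with an unadjusted p under 0.05, against 15.2% of all genes with such a p. Of the 7 genes 1 was called (0.896% of all genes up-regulated) and 5 were in the paired fit (7.76%). Their summed level was 4.27, 6.04 and 2.53 CPM at 12 months, 41.4, 24.2 and 56.7 CPM at 24 months and 185, 29.3 and 155 CPM at 3 months, while Krt13 had at most 0.053 CPM in any kidney. The part of urothelium in the rise of Krt5, Krt15 and Krt19 was not tested.

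Of 17 genes of tubular injury 3 were up-regulated, against 0.896% of all genes, 15 were higher and the median was 1.05. Among the 3 was Krt19, which is also a urothelial keratin and was higher together with the urothelial genes above, and their part in the list's values was not tested. In the paired fit 11 were up-regulated, against 7.76% of all genes, and without both kidneys numbered 2 the median was 1.03. Sox9, a transcription factor of tubular repair, was at 0.694, 0.411 and 0.502 CPM at 12 months and at 1.497, 1.85 and 1.70 CPM at 24 months (log2 fold change 1.65, adjusted p = 0.0287). Itgb6, an integrin subunit of injured epithelium, was at 41.9, 56.5 and 58.4 CPM and at 98.0, 139 and 92.9 CPM (log2 fold change 1.07, adjusted p = 0.0443), and its 3-month kidneys were at the level of 24 months, from 112 to 135 CPM. Havcr1, the gene of the injury marker KIM-1, was at 4.30, 12.6 and 5.42 CPM and at 13.3, 32.9 and 19.3 CPM. Its groups did not overlap, the kidneys numbered 2 were the highest of either age, and it missed the threshold (log2 fold change 1.55, adjusted p = 0.326) but passed it in the paired fit (adjusted p = 0.000281). Lcn2, a secreted injury marker, was at 3.87, 2.45 and 3.03 CPM and at 8.12, 9.27 and 9.85 CPM (log2 fold change 1.54, adjusted p = 0.0796, and 0.00154 in the paired fit). Krt18 also passed in the paired fit alone (adjusted p = 0.214 and 0.000427), and Krt8 and Krt7, keratins of simple epithelium, had log2 fold changes of -0.15 and 0.40.

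Of 13 heat shock genes 2 were up-regulated, against 0.896% of all genes, and 9 in the paired fit, against 7.76%. Of the 13 genes 12 were higher at 24 months, and the median log2 fold change was 0.86. Hspa8, which encodes the constitutive chaperone Hsc70, was at 1184, 1068 and 1255 CPM at 12 months and at 2868, 2906 and 2080 CPM at 24 months (log2 fold change 1.16, SE 0.17, adjusted p = 0.0196). Hsph1, which encodes Hsp105, was at 102, 60.4 and 95.1 CPM and at 282, 257 and 159 CPM (log2 fold change 1.44, SE 0.28, adjusted p = 0.0492). The 3-month kidneys were at 1840.4 to 2141 CPM of Hspa8 and 185 to 277 CPM of Hsph1, near or within the range of 24 months. Hspe1, a mitochondrial cochaperone, was the 1 lower member (log2 fold change -0.37). Among the uncalled, Hspa1b was at 4.56, 3.72 and 4.94 CPM and at 36.6, 46.5 and 16.1 CPM (adjusted p = 0.0610, and 0.0413 in the paired fit). The heat shock element in the form GAANNTTC lay in the promoter window of 7 of the 10 tested members with an entry, against 6.94% of the tested genes and 8.5% of all genes. Cirbp, the cold-inducible RNA-binding protein, went the other way, from 28.0, 38.8 and 35.2 CPM to 14.7, 10.7 and 15.9 CPM (log2 fold change -1.30, SE 0.18, adjusted p = 0.0196).

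All 21 tested immediate early genes, which cells switch on within minutes of a stimulus, were higher at 24 months (median log2 fold change 1.65). Called were 2 of them, against 0.896% of all genes up-regulated, and in the paired fit 8 of 22 tested, against 7.76%. Fos was at 0.278, 0.609 and 0.502 CPM at 12 months and at 97.8, 12.7 and 4.01 CPM at 24 months (log2 fold change 6.36, SE 1.20, adjusted p = 0.0443). The groups did not overlap, but 24-month replicate 1 held most of the signal, and Fos was the only called gene that lost its call in the paired fit (adjusted p = 0.164). Egr1 had the same order of kidneys, with 3.35, 3.31 and 3.40 CPM at 12 months and 464, 37.1 and 19.5 CPM at 24 months (log2 fold change 5.69, adjusted p = 0.0602). Fosl1 had 0 reads in the 12-month kidneys and 52 in the 24-month kidneys together, at least 4.99-fold higher against a floor of 3 reads per kidney. Summed over the list the levels were 195, 173 and 213 CPM at 12 months and 1389.7, 497 and 271 CPM at 24 months. The time from death to freezing is not given in the sources used here, and its part was not tested.

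**Figure D4:**
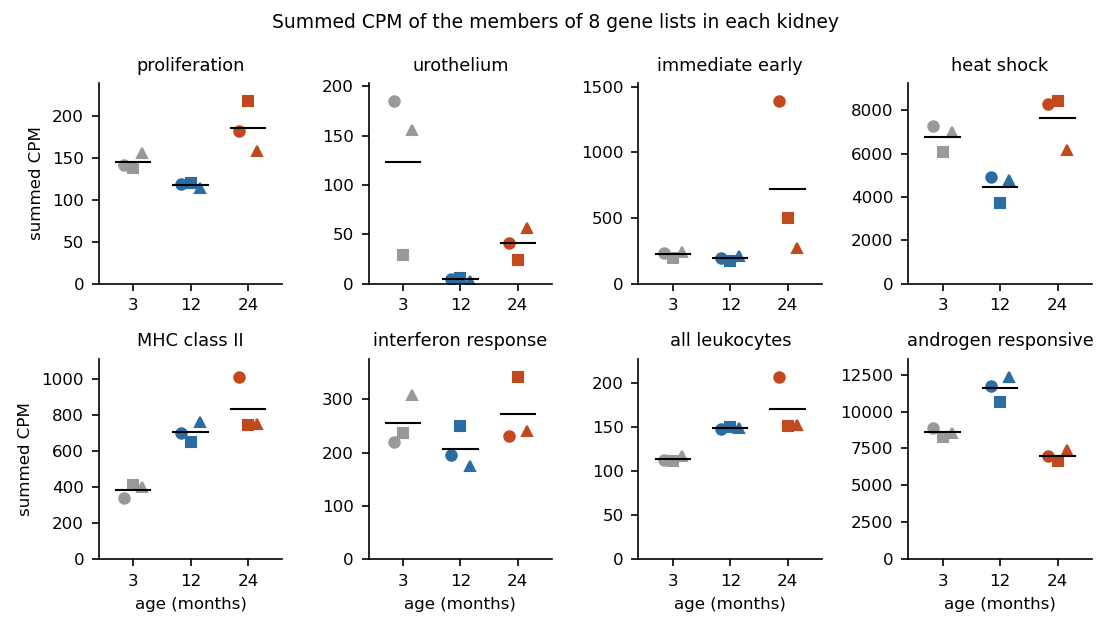
Summed CPM (vertical axes, linear from 0) of the members of 8 gene lists in each kidney by age in months (horizontal axes). Circles, squares and triangles are replicates 1, 2 and 3, grey at 3, blue at 12 and red at 24 months, and the line is the mean of 3 kidneys. The urothelial sum is at most 6.04 CPM at 12 months and at least 24.2 CPM at the other ages, the immediate early sum is carried by 24-month replicate 1, and the androgen list is highest at 12 months.

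Slco1a1 (ENSMUSG00000041698.11, chromosome 6 from 141907282 to 141946962), an organic anion transporter of the proximal tubule that depends on androgens in the mouse kidney, had the clearest fall. It was at 685, 842 and 886 CPM at 12 months and at 159, 165 and 198 CPM at 24 months, while the 3-month kidneys were in between, at 506, 406 and 508 CPM. The log2 fold change was -2.21 (SE 0.17, adjusted p = 0.00391), and Slco1a1 was the only gene of the comparison still called whichever of the 6 kidneys was omitted (adjusted p at most 0.0396). Odc1 (chromosome 12 from 17544794 to 17551505), ornithine decarboxylase, the first enzyme of polyamine synthesis and a classical androgen target in mouse kidney, was at 2582, 2670.2 and 2743 CPM and at 1153, 1377 and 1150.4 CPM (log2 fold change -1.12, SE 0.21, adjusted p = 0.0443). Its 3-month kidneys were spread from 1394 to 2474 CPM. Of 9 tested androgen responsive genes these 2 were called, against 0.434% of all genes down-regulated, 8 were lower and the median was -0.54. The paired fit had 5 of the 9 down-regulated, against 5.4% of all genes. Kap, the kidney androgen-regulated protein, was at 35282, 39491 and 34990 CPM and at 21792, 27048 and 26400 CPM (log2 fold change -0.54, adjusted p = 0.112, and 0.0169 in the paired fit).

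The other genes among the 15 largest falls had different roles and are given one by one. Srd5a2, the 5-alpha-reductase that makes dihydrotestosterone, was at 22.3, 18.7 and 25.3 CPM at 12 months and at 7.82, 5.85 and 8.31 CPM at 24 months (log2 fold change -1.59, adjusted p = 0.0290), with 2.07 to 4.12 CPM at 3 months. Ugt2b37, a glucuronosyltransferase, was at 210, 279 and 258 CPM and at 48.7, 82.4 and 76.3 CPM (log2 fold change -1.85, adjusted p = 0.0187). Upp2, a uridine phosphorylase, was at 37.3, 60.2 and 48.8 CPM and at 9.47, 18.5 and 13.3 CPM (log2 fold change -1.83, adjusted p = 0.0196). No groups overlapped. Cyp2a5, a cytochrome P450 enzyme, fell by 1.30 on the log2 scale, from 284 ± 32.6 to 116 ± 20.2 CPM, and Mogat2, which builds diacylglycerol, by 1.28, from 16.2 ± 2.07 to 6.70 ± 0.795 CPM (SD, n = 3 each). Rdh7, a retinol dehydrogenase, and the lipase genes Lipo2 and Lipo3 fell by 1.34, 2.08 and 1.36. Lipo2 and Lipo3 lie in the same stretch of chromosome 19 and resemble each other, as do members of the Ugt2b, Cyp2a and Slco1a families, so that reads could be shared between neighbours. The other genes among these falls were Tc2n, Cntnap5a, Zpld1, and Hebp1, a heme-binding protein, with log2 fold changes from -1.41 to -1.26.

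**Figure D5:**
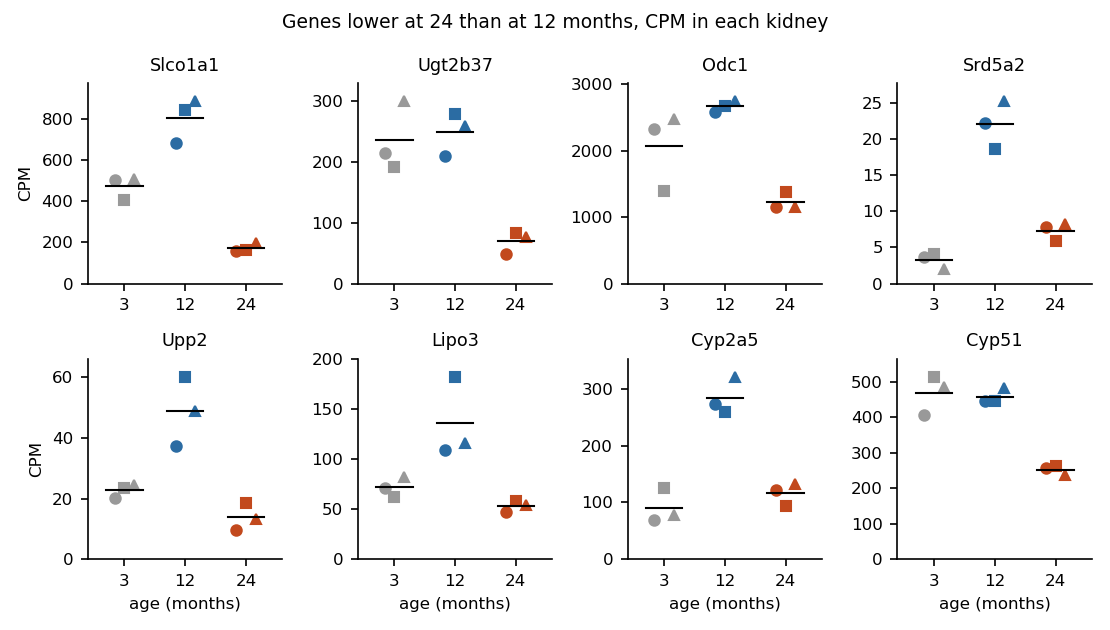
CPM (vertical axes, linear from 0) of 8 down-regulated genes in each kidney by age in months (horizontal axes). Circles, squares and triangles are replicates 1, 2 and 3, grey at 3, blue at 12 and red at 24 months, and the line is the mean of 3 kidneys. In each panel the 24-month kidneys lie below the 12-month kidneys, and for Srd5a2 and Cyp2a5 the means at 3 months are below those at 24 months.

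Dscaml1, a cell adhesion molecule, was among the 15 largest rises, at 0.451, 0.263 and 0.733 CPM at 12 months and at 3.57, 4.06 and 2.96 CPM at 24 months (log2 fold change 2.88, adjusted p = 0.0181), with 0.676 to 1.02 CPM at 3 months. Krt14, a keratin of basal epithelium, was at most at 0.0493 CPM in the 12-month kidneys, below the floor of 0.0531 CPM used for Fosl1, so that no fold is given, and at 0.931, 1.72 and 2.72 CPM at 24 months (adjusted p = 0.0181).

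Further metabolic lists held few calls. Over all genes 0.896% were up- and 0.434% down-regulated, and 15.2% had an unadjusted p under 0.05. In the paired fit 7.76% were up- and 5.4% down-regulated. Cyp51, the sterol 14-demethylase, fell from 447, 444 and 482 CPM to 256, 262 and 237 CPM (log2 fold change -0.86, SE 0.14, adjusted p = 0.0260), although 18 of 23 genes of cholesterol and lipid synthesis were higher and the median was 0.43 (0.26 without 12-month replicate 2 and 0.29 without 24-month replicate 1), with 8 at an unadjusted p under 0.05, and 8 up- and 3 down-regulated in the paired fit. Hmox1, heme oxygenase 1, rose from 21.9, 18.2 and 22.2 CPM to 39.5, 44.7 and 40.3 CPM (SE 0.13 on the log2 scale, adjusted p = 0.0181), and it was the only one called of 20 tested antioxidant genes, whose median was 0.04. Of 22 genes of oxidative phosphorylation 0 were called, 20 were lower and the median was -0.23 (-0.11 without 12-month replicate 2 and -0.14 without 24-month replicate 1), with 0 at an unadjusted p under 0.05 and 1 down-regulated in the paired fit. Of 24 genes of fatty acid oxidation 0 were called, with a median of 0.02, 3 at an unadjusted p under 0.05 and 3 up-regulated in the paired fit.

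Of genes that mark the segments of the nephron 0 were called by edgeR. The medians were -0.03 for 20 proximal tubule genes, 0.34 for 10 genes of the loop of Henle, 0.10 for 16 genes of distal tubule and collecting duct and 0.41 for 9 podocyte genes, and 5, 3, 3 and 1 genes had an unadjusted p under 0.05. The paired fit, with 7.76% up and 5.4% down among all genes, had 3 up and 2 down of the proximal tubule, 3 and 1 of the loop of Henle, 2 and 0 of distal tubule and collecting duct, and 1 and 0 of podocytes. With 1 kidney omitted the medians lay between -0.14 and 0.09, 0.25 and 0.44, -0.10 and 0.30, and 0.08 and 0.66, the lowest of the podocyte medians and the lowest of the distal medians both without 12-month replicate 2. Slc5a2, the glucose transporter SGLT2 of the early proximal tubule, was at 372, 245 and 380 CPM at 12 months and at 840, 639 and 807 CPM at 24 months, groups that did not overlap, and missed the threshold (log2 fold change 1.20, adjusted p = 0.0589). In the paired fit it passed (adjusted p = 0.000585). Of 12 endothelial genes 10 were lower, with a median of -0.31 (-0.59 without 24-month replicate 1 and -0.17 without 24-month replicate 2), 0 called and 4 down-regulated in the paired fit. Clock genes were split: 9 of 19 had an unadjusted p under 0.05, 0 were called by edgeR, 2 were up- and 4 down-regulated in the paired fit, and the median was -0.01. Arntl, which encodes BMAL1, was at 1.47, 1.43 and 1.97 CPM and at 9.86, 4.47 and 3.73 CPM (log2 fold change 1.89, adjusted p = 0.0589, and 0.0126 in the paired fit), and its output gene Dbp was at 165, 109 and 166 CPM and at 38.5, 49.9 and 88.3 CPM (log2 fold change -1.32, adjusted p = 0.120, and 0.0153 in the paired fit). The hour at which the mice were killed is not given in the sources used here, and its part was not tested.

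The remaining lists gave few calls. Of 22 tested secreted senescence factors Gdf15 was the only one called (0.896% of all genes were up-regulated), 16 were higher and the median was 0.36 (0.14 without 24-month replicate 1), and 5 were up- and 2 down-regulated in the paired fit. Of 17 genes of the unfolded protein response 0 were called by edgeR (6 at an unadjusted p under 0.05), 15 were higher and the median was 0.34, with 7 up-regulated in the paired fit. Creld2, an endoplasmic reticulum protein, had the largest log2 fold change of them, at 33.8, 23.4 and 26.3 CPM and at 88.98, 98.0 and 41.5 CPM (log2 fold change 1.45, adjusted p = 0.0692, and 0.0333 in the paired fit). In the renin angiotensin system 0 of 10 tested genes were called (3 at an unadjusted p under 0.05, and 1 up-regulated in the paired fit), and Ren1, renin, was at 81.2, 43.3 and 66.6 CPM and at 40.3, 46.1 and 27.7 CPM (log2 fold change -0.74, adjusted p = 0.214), groups that overlapped. None was called by edgeR in the model of all 9 kidneys among the genes of neutrophils and mast cells, dendritic cells, plasma cells, lymphatic endothelium, fibroblasts and pericytes, smooth muscle, adipocytes or red blood cells. Their median log2 fold changes were 2.39, -0.02, 0.43, 0.47, 0.12, 0.51, 0.59 and 0.21 over 7, 10, 10, 6, 14, 8, 8 and 6 tested genes. At an unadjusted p under 0.05 they had 2, 1, 2, 2, 4, 3, 0 and 0 genes. Against 7.76% up- and 5.4% down-regulated among all genes of the paired fit, it had 2 of 5 neutrophil and mast cell, 2 of 10 plasma cell, 2 of 6 lymphatic, 4 of 14 fibroblast and pericyte and 3 of 8 smooth muscle genes up, and 1 of 10 dendritic cell and 1 of 10 plasma cell genes down. With so few genes per list these shares say little about the cell types. Other settings moved several of these medians. The neutrophil and mast cell median was 1.11 over 5 genes in the 6 kidneys alone, and the adipocyte median -0.25 with limma voom. The adipocyte median was -2.32 with 24-month replicate 3 omitted and 2.56 with 12-month replicate 2 omitted, the red blood cell median -0.26 without 24-month replicate 2, the fibroblast and pericyte median 0.72 without 12-month replicate 2, the plasma cell median 0.15 without 24-month replicate 2, the lymphatic median 0.30 without 24-month replicate 1, and the dendritic cell median between -0.22 (24-month replicate 1 omitted) and 0.14 (12-month replicate 2 omitted). The neutrophil and mast cell genes summed to 2.20, 4.49 and 2.86 CPM at 12 months and to 11.1, 18.5 and 3.18 CPM at 24 months.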

How the data were processed

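RNA of 9 whole kidneys (3 each of 3, 12 and 24 months) was sequenced. The authors made stranded poly(A) libraries, processed the reads with nf-core/rnaseq 1.4.2 on GRCm38 and deposited raw counts per gene, which entered the models unchanged. Aligner, counter and strand setting are not given in the sources used here, so that reads of genes overlapping on opposite strands may be shared. Kidneys of 12 and 24 months were counted on 55401 genes, those of 3 months on 54146, and the 53772 identifiers in both were used. Of genes counted only in the older kidneys 108 were tested and 0 called. Symbols and positions are from GENCODE M 21 (the study names M 18).

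The 24- and 12-month kidneys were compared in a model of all 9 kidneys with edgeR 4.0.16 in R 4.3.3 (TMM scaling, filterByExpr, robust quasi-likelihood test, Benjamini-Hochberg adjustment over the tested genes). Calls needed an adjusted p below 0.05 and a log2 fold change beyond 0.5 in either direction. They are edgeR's calls in this model unless another fit is named. Adjusted p-values are edgeR's throughout. In the model of all 9 kidneys they rest on the spread between mice of the same age, the 3-month kidneys included. In the paired fit they rest on the spread left after the replicate number was taken into account. The model was tested on simulated counts that held no deviation shared by kidneys of the same number, so that simulation does not cover such a deviation. Tables and plots were made in Python 3.11.15. The named genes are the 15 largest rises and falls among called protein-coding genes (mean of 1 CPM or more, no overlap of groups, Gm and Rik symbols omitted), called or extreme members of the lists, the leading immunoglobulin segments and genes the study discusses, of which the text gives those its results turn on. Some genes this rule names are not reported here. Aen, Tnfrsf10b, Pmaip1, Psrc1, Gtse1, Kap, Hmmr, Prc1 and other genes given for their role were picked once their values were known. Members and lists were chosen with earlier results of these data known.

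Labels number the kidneys of each age 1 to 3. Deviations from the age mean correlated between same-numbered kidneys of 12 and 24 months (r = 0.384, 0.557 and 0.172 across genes), so these kidneys were treated as pairs in an alternative. Unlike numbers also correlated for 12-month replicate 3 with 24-month replicate 1 (r = 0.27) and 12-month replicate 1 with 24-month replicate 3 (r = 0.191), both above the same-numbered replicates 3, and the other unlike pairs lay between -0.479 and -0.24. Replicates 1 and 3 are thus not told apart as pairs by these values. The kidneys are from different mice, and what the number marks is not given in the sources used here. Between 3-month kidneys and older kidneys r was between -0.701 and -0.034 for same numbers and between -0.51 and 0.747 for unlike numbers. Other alternatives were limma voom (limma 3.58.1), DESeq2 1.42.0, other scalings, filters and thresholds, the 6 kidneys alone and each kidney omitted in turn.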

Additional observations from a re-analysis of the deposited data

How the results depend on the processing

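The 61 named genes with a call had the same direction in every alternative that tested them. Their groups of 12 and 24 months did not overlap, so a change of direction was hardly possible. The counts of called genes moved widely. The 153 up- and 74 down-regulated genes became 493 and 286 with DESeq2 and the study's settings in the 9 kidneys and 554 and 282 with DESeq2 in the 6 kidneys, of which 151 and 74, and 150 and 73, were among those called by edgeR. DESeq2 in the 9 kidneys, which tested 30029 genes, also called members of lists without an edgeR call. Higher were 10 immunoglobulin segments, 4 unfolded protein response, 3 clock, 2 interferon response, 2 neutrophil and mast cell, 2 smooth muscle and 2 proximal tubule genes. The down-regulated genes numbered 46 in the 6 kidneys alone, with all genes of their set or with the genes common to both sets, 44 with scaling to the library total, and 49 at an absolute log2 fold change above 1. With limma voom, RLE size factors, no filter or a minimum mean of 1 CPM both counts stayed within 1.5 times. Leaving out 1 kidney in turn, 3-month kidneys included, gave between 0 and 264 up-regulated and between 1 and 114 down-regulated genes. With the replicate block in all 9 kidneys, whose 3-month numbers do not pair with the others, there were 0 up- and 0 down-regulated genes, with a lowest adjusted p of 0.0751 and 1930 genes at an unadjusted p under 0.05. Chosen after seeing the data, the replicate block in the 6 kidneys gave 1303 and 907 genes, and both kidneys numbered 2 left out gave 0 and 0 with 1785 at an unadjusted p under 0.05. The paired fit changed the calls given beside the results and no other call of a named up- or down-regulated gene. The cause of these shifts was not tested. Genes below 1 CPM, such as Fosl1, rest on few reads, and all of the calls rest on 3 mice per age. Medians of several lists near 0 had no stable sign when 1 kidney of 12 or 24 months was omitted. They lay between -0.09 and 0.07 for MHC class I, -0.11 and 0.08 for the circadian clock, -0.04 and 0.13 for fatty acid oxidation, -0.04 and 0.16 for antioxidant genes and -0.10 and 0.10 for the renin angiotensin system. The median of the cell cycle inhibitors stayed negative, between -0.098 and -0.008. With a minimum mean of 1 CPM the median fell from 0.67 to 0.09 over 11 chemokines and from 0.98 to -0.11 over 2 B cell genes.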

Other observations

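Beyond the genes above, called genes of some further roles are given here. They were chosen after their values were seen and are values of the same comparison, not further evidence. Stanniocalcin genes, which encode hormones that regulate calcium and phosphate transport, were higher at 24 months, Stc1 by a log2 fold change of 2.07 (2.21 ± 0.453 to 9.26 ± 3.50 CPM, SD, n = 3 each, adjusted p = 0.0196) and Stc2 by 1.11 (adjusted p = 0.0196). The phosphate transporter gene Slc34a2 rose by 1.25 (adjusted p = 0.0499). The growth factor gene Nrg1 went from 6.38 ± 0.462 to 23.6 ± 5.94 CPM (log2 fold change 1.89, adjusted p = 0.0163), and Ccnd1, the gene of cyclin D1, from 128 to 328 CPM (log2 fold change 1.36, adjusted p = 0.0411). Cp, which encodes ceruloplasmin, a copper-carrying ferroxidase of plasma, rose by 1.15 (adjusted p = 0.0181).

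Some lower genes with known roles were the following, with no list or test behind their choice. Agps, an enzyme of ether lipid synthesis, fell from 512 to 270.2 CPM (log2 fold change -0.92, adjusted p = 0.0250), Amacr, a racemase of branched fatty acids, from 516 to 297 CPM (log2 fold change -0.80, adjusted p = 0.0222), and the membrane protein genes Pxmp2 and Pex11g by 0.81 and 0.68 on the log2 scale. Ebp, a sterol isomerase, fell by 0.68 (adjusted p = 0.0443). Id1, like Id3 an inhibitor of DNA binding, fell by 1.13 (adjusted p = 0.0386), and Ly6a, the gene of the surface protein Sca-1, from 1063 to 492 CPM (log2 fold change -1.11, adjusted p = 0.0196).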
